A study of Sus scrofa with 4 samples.

Results

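The genes described here are 44 protein-coding genes of DNA replication and S phase, chosen by symbol for their function, and they were followed through the adipogenic differentiation of pig preadipocytes. All 44 were found among the 22944 genes with an expression value, of which 16192 are protein-coding. Preadipocytes came from the subcutaneous fat of 3 male Chinese Erhualian piglets 5 days old, and RNA of the same stage from the 3 piglets was mixed before sequencing. The stages were D0 (confluent preadipocytes, before induction), D2 (after 2 days with the DMI cocktail of dexamethasone, 3-isobutyl-1-methylxanthine and insulin), D4 (after a further 2 days with insulin alone added to the growth medium) and D8 (kept in growth medium afterwards, to maturation). Each stage has 1 library of ribosomal RNA-depleted total RNA, so a stage cannot be told apart from its library, and differences between stages carry no test. Expression is given as FPKM, sequenced fragments per kilobase of gene length, scaled to the library's total. A gene is said to have risen or fallen where its ratio between stages was at least 2-fold on the scale of log2(FPKM + 0.01), and other differences are given as values. The 95% intervals printed beside some ratios cover counting error only.

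Before a cell divides, its DNA is opened by a ring-shaped helicase that is loaded at origins in G1 and switched on in S phase. Polymerases held on the template by a sliding clamp then copy both strands, while nucleotide synthesis, histone chaperones and checkpoint proteins supply and guard the moving forks. Many of these genes are transcribed around the G1/S boundary by E2F factors, and mouse preadipocyte lines that have reached confluence are known to re-enter the cell cycle after hormonal induction (mitotic clonal expansion) before they differentiate.

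The libraries held 54128151 to 75387428 counted fragments, as recovered from the steps in the values of short RNA genes. A gene passed the filter on low values when 3 or more of the 4 libraries had an FPKM of at least 1, as for 9191 protein-coding genes and 38 of the 44 replication genes. CDC6, GINS2, DSCC1, EXO1, BRIP1 and E2F8 did not pass, so counts are given both over the 38 and over all 44, the latter beside the 11513 protein-coding genes with a mean FPKM of at least 0.25. The labelled cell type was checked with marker genes. The summed FPKM of 8 adipocyte markers was 122, 484, 1720 and 2070 at D0, D2, D4 and D8. Leptin (LEP) stayed at or under 0.314. From D4 to D8 FABP4 went from 853 to 1560 and CIDEC from 5.01 to 54.6. PLIN1 went from 215 to 90.3, CEBPA from 162 to 37.1 and PPARG from 51.9 to 25.8. LPL (250 to 142) and ADIPOQ (179 to 158) were lower at D8 as well. The summed FPKM of 5 preadipocyte and fibroblast markers was 452, 595, 460 and 363 at D0, D2, D4 and D8. COL1A1 was the largest part (258, 283, 193 and 211), and the markers did not move alike. PDGFRA was 75.8, 189, 149 and 60.8, PDGFRB 12.4, 20.9, 28.8 and 12.0, and THY1 105, 101, 88.0 and 78.8. CD34 stayed at or under 0.391, and DLK1 was not found under that symbol among the protein-coding genes. Immune markers summed to 3.00 to 7.80 over 4 genes found, mostly CD14, with PTPRC at or under 0.0712, and endothelial markers summed to 1.16 to 2.65 over 5 genes, mostly PECAM1, with CDH5, VWF and KDR at or near 0. Of the smooth muscle markers, desmin (DES) was 436, 37.7, 4.05 and 35.7 at D0, D2, D4 and D8. MYH11, the other one, was at or under 0.633 and did not pass the filter. Of the erythroid markers, HBB was listed at 0 in 3 libraries and at 0.271 at D4. The part of these markers in the differences below was not tested, and in bulk RNA fewer cycling cells and less RNA per cell cannot be told apart.

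Most replication genes had their lowest value at D2, and most had their highest at D4. All 44 summed to an FPKM of 489, 339, 567 and 426 at D0, D2, D4 and D8. Abundant genes weigh most in that sum, and PCNA alone was 68.1, 59.0, 118 and 65.2. The median log2 ratio of D4 to D0 was 0.13 over the 44, beside 0.08 over genes with a mean FPKM of at least 0.25. Of the 44, 34 (77.3%) had their lowest value at D2, against 22.9% of protein-coding genes with a mean FPKM of at least 0.25. D4 held the highest value of 27 (61.4%, against 37.6%) and D0 of 16 (36.4%, against 35.3%). D8 held that of 1 (2.27%, against 10.5%) and D2 of none (against 16.6%). Both held, lowest at D2 and highest at D4, for 20 of the 44 (45.5%, against 4.28%).

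**Figure D1:**
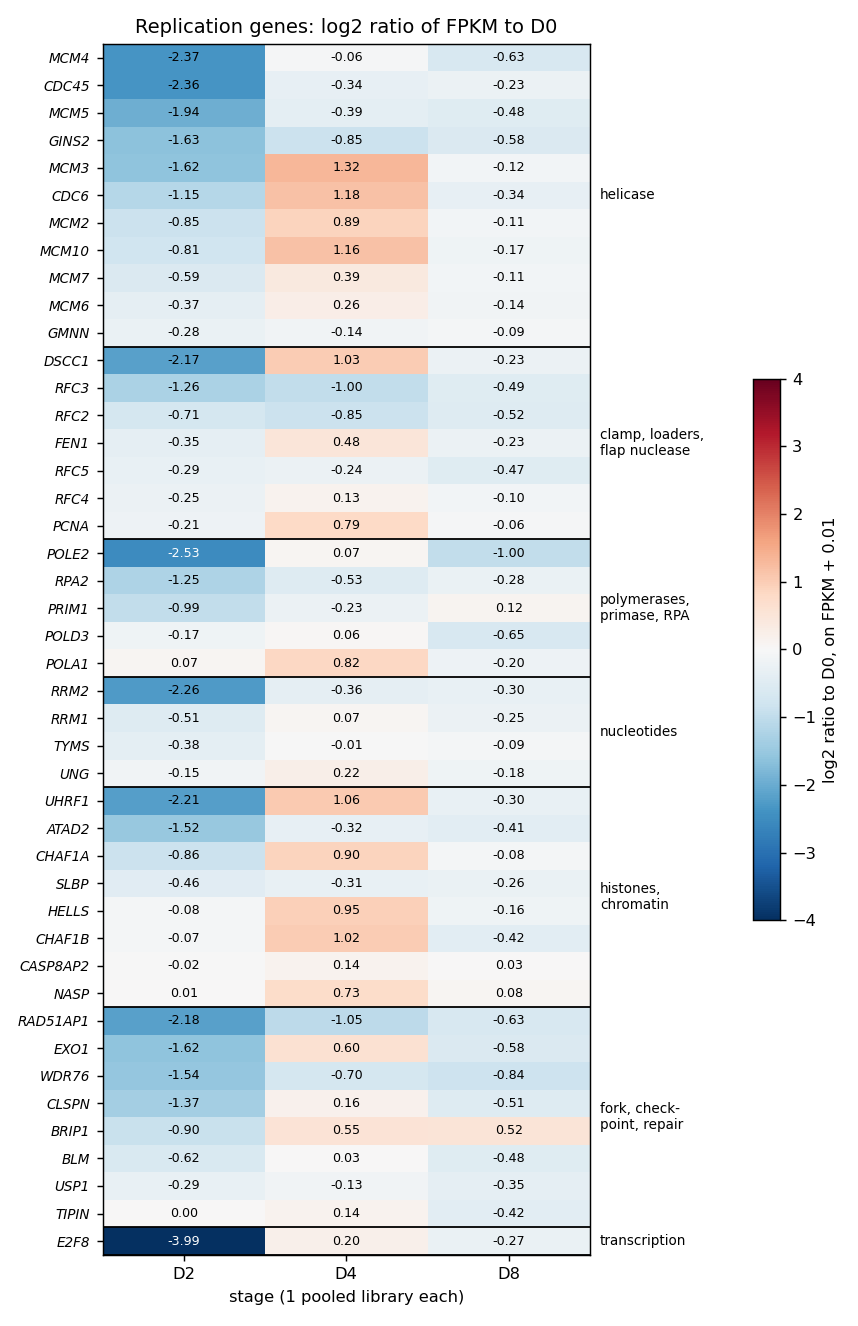
Log2 ratio of FPKM (+ 0.01) to D0 for each of the 44 genes (rows, grouped by role) at D2, D4 and D8 (columns, 1 pooled library each), with the value printed in each cell. The D2 column is negative for 41 genes, the D4 column is above 0 for 27 and below 0 for 17, and the D8 column lies between -1.0 and 0.52.

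Between D0 and D2, the interval with the DMI cocktail, helicase, polymerase and fork genes had the lowest medians of the 6 roles with more than 1 gene, and the median of histone and chromatin genes lay nearest to 0. Of the 44, 18 fell at least 2-fold and 0 rose, beside 12.9% and 8.97% of all protein-coding genes with a mean FPKM of at least 0.25. Among the 38 that passed the filter, 13 fell and 0 rose, beside 10.1% and 6.67% of all genes that passed. The median log2 ratio was -0.60 over the 38 and -0.83 over the 44, and -0.03 over all genes that passed. At D2, 41 of the 44 and 35 of the 38 were lower, beside 51.8% and 52.0% of all genes. By role, 6 of 11 helicase genes fell (median -1.15), as did 4 of 8 fork and repair genes (-1.13), 2 of 5 polymerase, primase and single-strand binding genes (-0.99), 2 of 8 histone and chromatin genes (-0.27), 2 of 7 clamp genes (-0.35) and 1 of 4 nucleotide genes (-0.44), and the transcription factor E2F8 fell too (-3.99). POLE2, the second subunit of DNA polymerase epsilon (chromosome 1, 179495278 to 179529891, minus strand), had the lowest ratio among genes that passed, with a log2 ratio of -2.53 (95% interval -3.33 to -1.87, which may be too wide, since its recovered reads may be a fraction of the true number). MCM4, a helicase subunit (chromosome 4, 79674737 to 79686964, minus strand), followed with -2.37 (-2.54 to -2.21). At the other end were POLA1, the catalytic subunit of polymerase alpha, with 0.07 (-0.05 to 0.19), and NASP, a histone chaperone, with 0.01 (-0.04 to 0.06).

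Between D2 and D4, after the cocktail was withdrawn and insulin kept, most replication genes were higher and none fell. Of the 44, 21 rose at least 2-fold and 0 fell, beside 6.92% and 2.10% of genes with a mean FPKM of at least 0.25, and of the 38 that passed, 16 rose and 0 fell, beside 4.24% and 0.838%. All but RFC2 were higher at D4 than at D2, 43 of 44 and 37 of 38, where 63.2% and 62.5% of all genes were. The median log2 ratio was 0.80 over the 38, 0.91 over the 44 and 0.09 over all genes that passed. Histone and chromatin genes rose in 5 of 8 cases and helicase genes in 7 of 11, with medians of 1.06 and 1.73, against 4 of 8 fork and repair genes, 2 of 7 clamp genes and 1 each of 5 polymerase and 4 nucleotide genes, and E2F8. UHRF1, which recognises hemimethylated DNA behind the fork (chromosome 2, 73898061 to 73937727, minus strand), had the highest ratio among genes that passed, 3.28 on the log2 scale (2.99 to 3.65). MCM3 (chromosome 7, 46084648 to 46104425, minus strand) followed with 2.94 (2.80 to 3.10). Of the genes that did not pass, E2F8 had 4.19 and DSCC1 3.20, from FPKM values at D2 of only 0.0172 and 0.0966. Ratios from such low values depend on the pseudocount, and that of DSCC1 was 2.45 with 0.1 and 0.85 with 1. The lowest ratios were those of the clamp loader subunits RFC2, with -0.14 (-0.24 to -0.05), and RFC5, with 0.05 (-0.07 to 0.18).

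From D4 to D8, in growth medium, more replication genes were lower than higher, and the medians lay nearer to those of all genes. Of the 44, 10 fell at least 2-fold and 0 rose, beside 13.0% and 6.69% of genes with a mean FPKM of at least 0.25, and of the 38 that passed, 7 fell and 0 rose, beside 10.1% and 4.43%. The falls are 22.7% of the 44 and 18.4% of the 38, and the 7 became 4 under median-of-ratios scaling, 3 with an FPKM of at least 1 required in all 4 libraries and 1 with a pseudocount of 1. The median log2 ratio was -0.40 over the 38, and -0.21 over all genes, with 34 of the 44 and 29 of the 38 lower, beside 64.4% and 64.9%. When libraries were scaled by the median of ratios instead, the median over all genes became -0.01, that over the 38 became -0.20, and 24 of the 38 were lower. The largest falls among genes that passed were those of MCM3, with -1.45 (-1.54 to -1.35), and CHAF1B, the middle subunit of chromatin assembly factor 1 (chromosome 13, 200048096 to 200074902, plus strand), with -1.43 (-1.67 to -1.23). CDC6, which did not pass, had -1.52. RFC3 was 0.51 higher (0.39 to 0.62) and RAD51AP1 0.42 higher (0.25 to 0.60).

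Set against D0, the D4 library was mixed and the D8 library close. At D4, 6 of the 44 had risen at least 2-fold (MCM3, MCM10, CDC6, DSCC1, UHRF1 and CHAF1B, with log2 ratios of 1.02 to 1.32) and 1 had fallen (RAD51AP1, -1.05), beside 13.4% and 11.0% of genes with a mean FPKM of at least 0.25. Over the 38 that passed, 4 had risen and 1 had fallen, beside 10.4% and 8.81%, and the median was 0.07, beside 0.06 over all genes. The rises of DSCC1 and CHAF1B were not past 2-fold with a pseudocount of 0.1 or under median-of-ratios scaling, and over the 38 the number past 2-fold was 2 with an FPKM of at least 1 in all 4 libraries and 1 with a pseudocount of 1. At D4, 27 of the 44 and 22 of the 38 were higher than at D0, beside 54.4% and 53.8%. The D4 values thus differed from D0 in both directions while their median did not stand apart. At D8, 1 of the 44 had fallen at least 2-fold, POLE2 at -1.0, and 0 had risen, beside 6.21% and 5.53%, or beside 3.68% and 3.60% over the 38 that passed. That of POLE2 was not past 2-fold with a pseudocount of 0.1 or 1 or under median-of-ratios scaling. The median at D8 was -0.25 over the 38 and -0.18 over all genes, with 40 of the 44 and 35 of the 38 lower, beside 66.5% and 68.5%. Under median-of-ratios scaling 25 of the 38 were lower, with medians of -0.09 and -0.02. D2 with D0, D4 with D0 and D8 with D0 share the D0 library, and D2 with D0 and D4 with D2 share the D2 library, and D4 enters 3 of the 5 comparisons, so a low or high value in a shared library enters both.

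**Figure D2:**
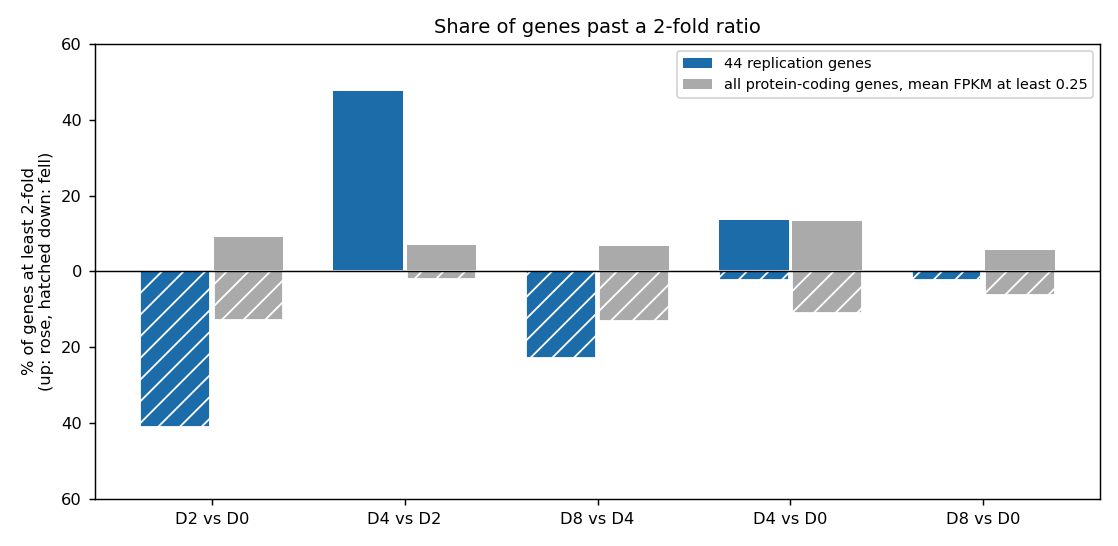
Share of genes (% on the vertical axis) that rose (up) or fell (down, hatched) at least 2-fold in each comparison of 2 stages, for the 44 replication genes (blue) and all protein-coding genes with a mean FPKM of at least 0.25 (grey). The blue bars reach 40.9% down at D2 against D0 and 47.7% up at D4 against D2, where the grey bars reach 12.9% and 6.92%.

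The MCM2 to MCM7 proteins form the hexamer that unwinds DNA, one copy of each. MCM6, the most abundant helicase transcript (chromosome 15, 15923638 to 15978587, plus strand), had an FPKM of 54.5, 42.1, 65.3 and 49.3 at D0, D2, D4 and D8, and it passed 2-fold in no comparison. MCM4 was 10.3, 1.98, 9.85 and 6.64, and MCM5 was 15.2, 3.97, 11.6 and 10.9 in the same order. Both were lowest at D2 and stood below D0 at D4, MCM5 with a log2 ratio of -0.39 (-0.47 to -0.31). That of MCM4 was only -0.06, and its counting interval, -0.14 to 0.02, held no difference. MCM3 was 5.97, 1.94, 14.9 and 5.47 at D0, D2, D4 and D8. MCM2 was 7.4, 4.10, 13.7 and 6.85. For these subunits the D4 library was the highest, and D0 and D8 lay close together. MCM7 ranged from 10.5 at D2 to 20.7 at D4.

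Within a library the balance of the 6 transcripts was not the same at each stage. Their sum was 109, 64.6, 136 and 93.8 at D0, D2, D4 and D8, and the highest stood 9.13, 21.8, 6.62 and 9.0 times over the lowest. The lowest was MCM3 at D0, D2 and D8, and MCM4 at D4. MCM3 amounted to 0.392 of MCM5 at D0 (counting interval 0.369 to 0.416), 0.488 at D2 (0.429 to 0.555), 1.29 at D4 (1.22 to 1.35) and 0.502 at D8 (0.464 to 0.542). MCM3 thus exceeded MCM5 in the D4 library and lay under it in the other 3. MCM7 over MCM6 moved least, from 0.248 at D2 to 0.317 at D4.

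**Figure D3:**
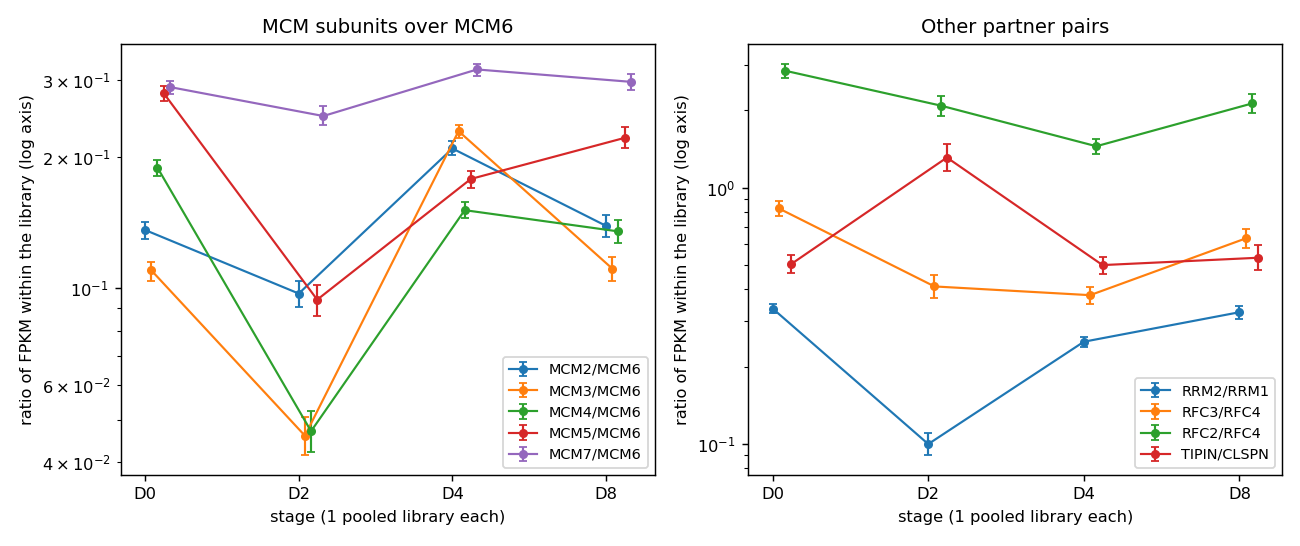
Ratio of FPKM between partner genes within each library (log axes) at D0, D2, D4 and D8, with MCM2, MCM3, MCM4, MCM5 and MCM7 over MCM6 on the left and 4 other pairs on the right, where bars are 95% counting intervals and each stage is 1 pooled library. MCM3 over MCM6 went from 0.110 at D0 to 0.046 at D2 and 0.229 at D4, and RRM2 over RRM1 from 0.337 to 0.0996 and 0.25.

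Loading and activation factors other than GMNN had lower FPKM than each subunit of the hexamer in each library. CDC6, which brings the MCM ring to origins, had an FPKM of 0.405, 0.177, 0.927 and 0.318 at D0, D2, D4 and D8. MCM10, needed to start the loaded helicase, was 1.27, 0.721, 2.85 and 1.13. Like MCM2 and MCM3, both were highest at D4. CDC45, which joins the ring to make the active helicase, was 3.28, 0.630, 2.58 and 2.80 at D0, D2, D4 and D8. GINS2, a subunit of the GINS complex in the same assembly, was 1.31, 0.415, 0.721 and 0.868. CDC45 and GINS2 were highest at D0, and their D4 and D8 values lay between those of D2 and D0. GINS2 overlaps GSE1, on the opposite strand, over 25.2% of its span, and GSE1 was 0.427 to 1.22, so reads of the overlap may not be told apart if counting ignored strand. GMNN (geminin), which blocks relicensing, kept within 4.98 to 6.06.

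PCNA, the sliding clamp, was the most abundant of the 44, with an FPKM of 68.1, 59.0, 118 and 65.2 at D0, D2, D4 and D8. It rose between D2 and D4, by a log2 ratio of 1.0, just at 2-fold, and was not past it under median-of-ratios scaling (0.92) or an equal protein-coding sum (0.93). RFC3, a subunit of the clamp loader, was 9.33, 3.88, 4.66 and 6.64. DSCC1, a subunit of the alternative clamp loader built on CTF18, was 0.470, 0.0966, 0.972 and 0.398, lowest at D2 and highest at D4. DSCC1 lies wholly within DEPTOR, on the other strand, and DEPTOR ran from 0.293 at D0 to 3.86 at D2 and 2.32 at D4. The other loader subunits, which assemble with RFC3 in a single complex, moved less and not alike. RFC2 was highest at D0 (32.1) and lowest at D4 (17.8), RFC4 ran from 9.43 at D2 to 12.3 at D4, and RFC5 from 9.21 at D0 to 6.66 at D8. As a result RFC3 over RFC4 was 0.829, 0.411, 0.38 and 0.633 at D0, D2, D4 and D8, and RFC2 over RFC4 was 2.86, 2.09, 1.45 and 2.13. The flap endonuclease FEN1, which trims Okazaki fragments, ranged from 5.25 at D2 to 9.30 at D4.

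Of the polymerase genes, RPA2, a subunit of the protein that coats single-stranded DNA, was the most abundant, with an FPKM of 18.7, 7.86, 12.9 and 15.3 at D0, D2, D4 and D8. POLE2 was 2.30, 0.389, 2.41 and 1.14. POLA1 was 1.65, 1.73, 2.91 and 1.43, and it fell between D4 and D8, a call lost with a pseudocount of 0.1 (-0.98) or 1 (-0.69) and under median-of-ratios scaling (-0.82). At D2, POLE2 and RPA2 fell and POLA1 did not. PRIM1, the catalytic primase subunit, ranged from 4.25 at D2 to 9.22 at D8 and was the 1 gene of the 44 with its highest value at D8. POLD3, an accessory subunit of polymerase delta, lay between 4.14 and 6.77.

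Ribonucleotide reductase, which makes deoxynucleotides, has a large subunit encoded by RRM1 and a small one by RRM2. RRM2 had an FPKM of 9.13, 1.90, 7.12 and 7.42 at D0, D2, D4 and D8, and RRM1 ranged from 19.1 at D2 to 28.5 at D4. RRM2 over RRM1 was 0.337 at D0 (0.323 to 0.352), 0.0996 at D2 (0.0901 to 0.110), 0.25 at D4 (0.238 to 0.262) and 0.326 at D8 (0.308 to 0.345). RRM2 fell at D2 while RRM1 did not pass 2-fold, and the interval of their ratio at D2 does not overlap those of the other libraries. TYMS, the thymidylate synthase, was the most abundant gene of this role, at 58.1, 44.6, 57.7 and 54.8, past 2-fold nowhere. UNG, which removes uracil from DNA, lay between 8.49 and 11.2. An antisense transcript overlaps RRM2 and reached an FPKM of 0.476.

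At the 2-fold cutoff, 2 of 8 histone and chromatin genes fell at D2. The log2 ratios of the others ran from -0.86 for CHAF1A to 0.01 for NASP. UHRF1 had an FPKM of 1.61, 0.339, 3.38 and 1.31 at D0, D2, D4 and D8. ATAD2, a bromodomain ATPase, was 3.12, 1.08, 2.50 and 2.34. Both fell at D2, and of the pair UHRF1 alone was highest at D4. With a pseudocount of 1 neither fall was past 2-fold, UHRF1 having -0.96 and ATAD2 -0.98. CHAF1A, the large subunit of chromatin assembly factor 1, which deposits histones behind the fork, was 2.69, 1.48, 5.01 and 2.54. CHAF1B was 1.28, 1.22, 2.60 and 0.955. HELLS, a chromatin remodeller linked to DNA methylation, was 2.74, 2.60, 5.32 and 2.46. CHAF1B and HELLS differed little between D0 and D2, and all 3 rose between D2 and D4, with CHAF1B and HELLS falling at D8. The rise of HELLS (1.03) was not past 2-fold under median-of-ratios scaling (0.95) or an equal protein-coding sum (0.96), nor was its fall (-1.11) under median-of-ratios scaling (-0.91), and with a pseudocount of 1 neither HELLS nor CHAF1B was past 2-fold. NASP, the most abundant of the role, was 30.3, 30.6, 50.2 and 32.1 at D0, D2, D4 and D8. SLBP, which binds the stem-loop of histone mRNA, lay between 6.66 and 9.18, and CASP8AP2, which works in histone mRNA processing, between 4.39 and 4.87.

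Among fork, checkpoint and repair genes, CLSPN (claspin, which relays the replication checkpoint) had an FPKM of 3.42, 1.32, 3.81 and 2.4 at D0, D2, D4 and D8. TIPIN, of the fork protection complex, lay between 1.28 and 1.90. TIPIN therefore stood at 1.31 of CLSPN at D2 (1.16 to 1.48) and at 0.498 to 0.532 in the other libraries. RAD51AP1, a factor of homologous recombination (chromosome 5, 65872277 to 65897210, minus strand), was 7.09, 1.56, 3.41 and 4.58. It was the 1 gene of the 44 at least 2-fold below D0 at D4, RFC3 lying just short of that at a log2 ratio of -1.0. Its neighbour DYRK4, which shares 22.2% of its span on the same strand, was at or under 0.0216. EXO1, a DNA exonuclease of mismatch and break repair, was 0.948, 0.301, 1.44 and 0.629. BRIP1, a helicase that partners BRCA1, was 0.867, 0.462, 1.27 and 1.25. WDR76 was 2.20, 0.748, 1.35 and 1.22. All 4 of RAD51AP1, EXO1, BRIP1 and WDR76 had their lowest value at D2, and EXO1 and BRIP1 had their highest at D4. USP1, which removes ubiquitin from PCNA and was the most abundant of the role, was 15.0, 12.2, 13.7 and 11.7, and BLM, a RecQ helicase, lay between 1.38 and 2.17.

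E2F8, an atypical E2F that represses its targets (chromosome 2, 40178182 to 40194932, plus strand), had the lowest mean FPKM of the 44, although CDC6 was lower at D0 and D8. It had an FPKM of 0.423, 0.0172, 0.486 and 0.349 at D0, D2, D4 and D8, from 135, 4, 153 and 80 recovered reads. With 4 reads at D2, its log2 ratio of -3.99 against D0 is imprecise, and the counting interval of the reads alone, with no pseudocount, runs from -6.52 to -3.23.

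**Figure D4:**
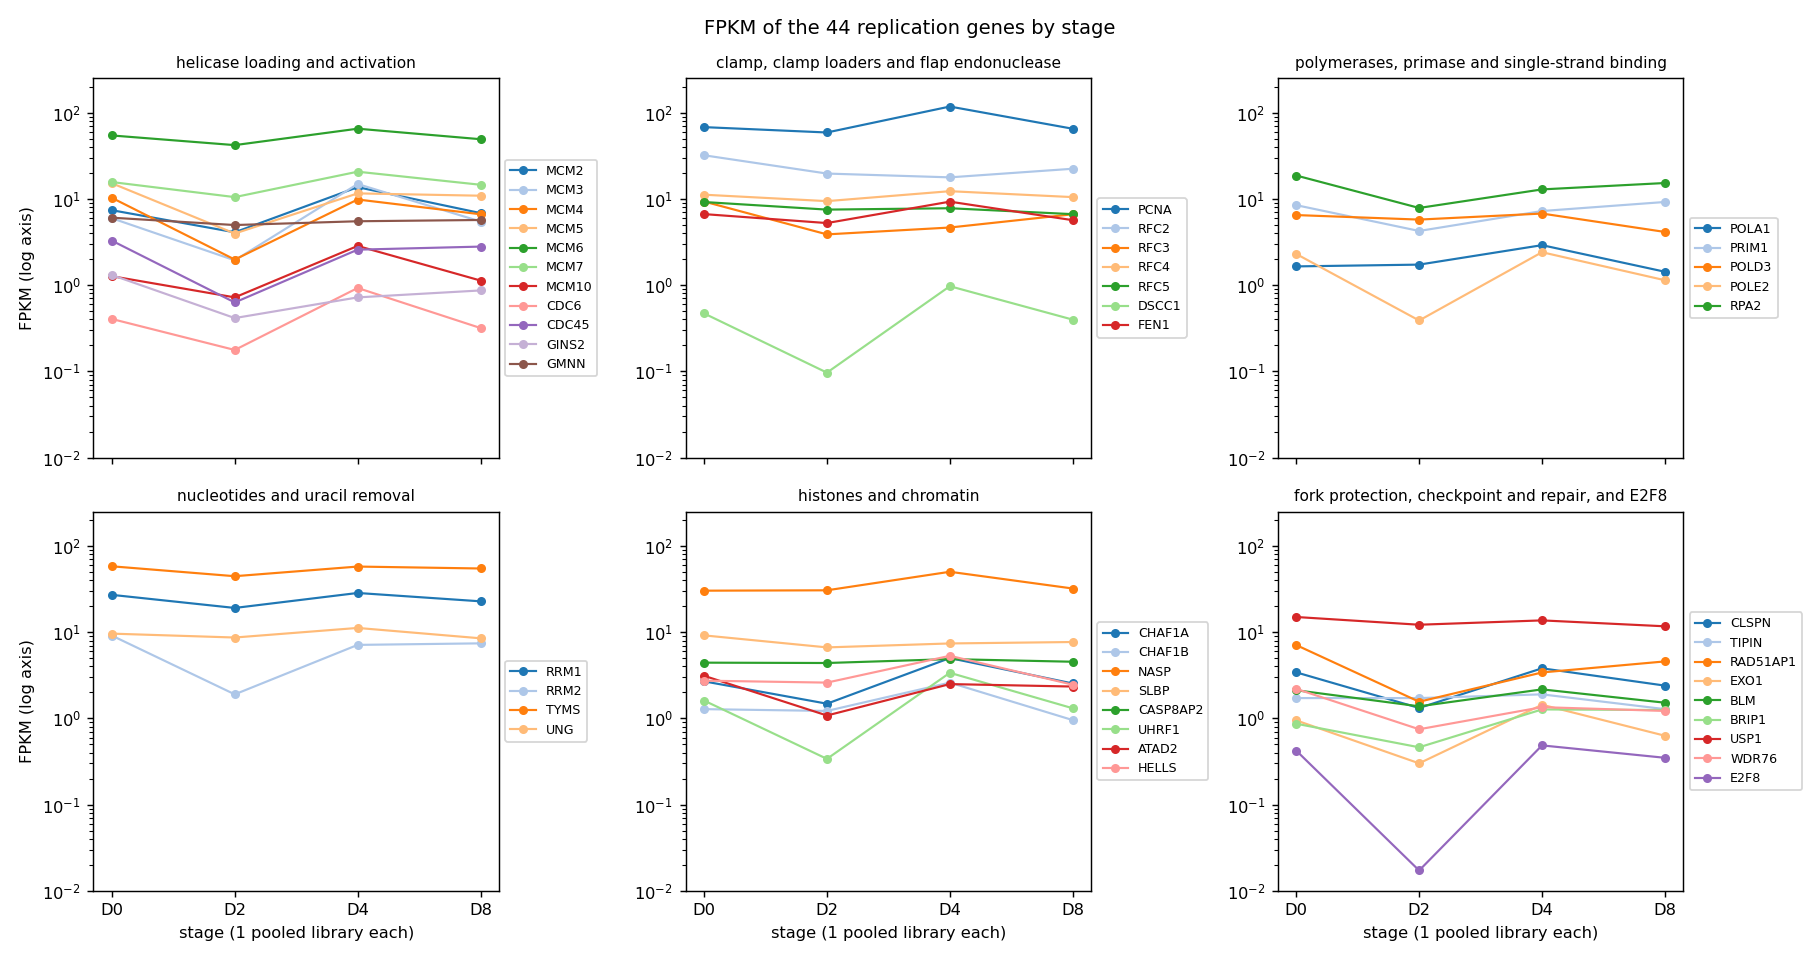
FPKM (log axis) of the 44 replication genes at D0, D2, D4 and D8, 1 line per gene and 1 panel per role, each point 1 pooled library. PCNA, at 118 in D4, MCM6, NASP and TYMS lie at the top of their panels, and E2F8 drops to 0.0172 at D2.

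Ordered by their values over the 4 libraries, the genes fell mainly into 3 patterns. The order D2, D8, D0, D4 from lowest to highest was the most frequent, with 18 genes, among them MCM2, MCM3, MCM6, MCM7, MCM10, CDC6, PCNA, FEN1, CHAF1A, UHRF1 and CLSPN. The order D2, D4, D8, D0 held for 8: CDC45, GINS2, GMNN, RFC3, RPA2, RRM2, SLBP and RAD51AP1. The order D2, D8, D4, D0 held for 5: MCM4, MCM5, TYMS, ATAD2 and WDR76. Lowest at D2 and highest at D4 were 20 (45.5%), against 4.28% of protein-coding genes with a mean FPKM of at least 0.25. Lowest at D2 and highest at D0 were 13 (29.5%), against 14.3%. The share of each full order over all genes was not counted. Subunits of 1 complex thus had different orders, as with MCM3 and MCM4, RFC3 and RFC4, or RRM1 and RRM2. Several of these orders rest on small differences, such as D0 against D4 in TYMS (58.1 and 57.7) and in MCM4 (10.3 and 9.85).

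A wider list of replication genes, not counting the 44, was set beside them. Of 61 symbols, 60 were found and 50 passed the filter. Between D0 and D2, 13 of the 50 fell and 0 rose, beside 10.1% and 6.67% of all genes that passed. The median log2 ratio was -0.55. At D2, 17 of the 50 (34.0%) were higher, beside 48.0% of all genes that passed. Between D2 and D4, 16 rose and 0 fell, with a median of 0.54, beside 4.24% and 0.838%. Between D4 and D8, 5 fell and 0 rose (-0.34), which is 10% of the list, beside 10.1% of all genes. TK1, the thymidine kinase of the salvage pathway, had the largest fall at D2, with an FPKM of 36.8, 5.61, 20.6 and 25.6 at D0, D2, D4 and D8. CCNA2 (cyclin A2) was 17.7, 2.78, 7.57 and 11.4, and POLE, the catalytic partner of POLE2, was 2.19, 0.415, 3.27 and 1.74. The largest rises at D4 were those of POLE, of the histone chaperone ASF1B (2.62, 0.642, 3.65 and 1.75) and of the transcription factor E2F1 (3.30, 0.753, 3.48 and 1.72). POLE and POLE2, 2 subunits of polymerase epsilon, thus had their lowest value at D2 and their highest at D4. For POLE2 the D4 value lay close to that of D0, with a log2 ratio of 0.07 (-0.26 to 0.4, which may be too wide).

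Genes of G2 and mitosis had a lower median at D2 than the replication genes, and nearly all of them had their highest value at D0. Of 46 such genes 39 passed the filter, and 34 of the 39 fell between D0 and D2 (median log2 ratio -2.72), beside 10.1% of all genes, while 32 rose between D2 and D4 (1.83), beside 4.24%. GTSE1 was 1.83, 0.0954, 1.09 and 1.22 at D0, D2, D4 and D8, NEK2, a centrosomal kinase, was 2.43, 0.147, 2.07 and 1.11, and ANLN (anillin, a protein of cytokinesis) was 21.1, 1.38, 4.93 and 13.6. KIF2C, a mitotic kinesin, was 3.53, 0.338, 2.4 and 2.21. Of the proliferation markers, TOP2A was 18.1, 2.75, 13.8 and 13.3 and MKI67 0.817, 0.116, 0.587 and 0.390. At D4, 15 of the 39 were at least 2-fold under D0 (median -0.78), where 1 of the 38 replication genes was (0.07) and 8.81% of all genes were. From D4 to D8, 6 of the 39 rose and 0 fell (0.21), where 7 of the 38 replication genes fell and 0 rose (-0.40), and of all genes 4.43% rose and 10.1% fell. The 6 became 3 with an equal protein-coding sum or a pseudocount of 1, and the 7 became 4 under median-of-ratios scaling. The highest value was at D0 for 38 of the 39 (97.4%), beside 36.5% of all genes that passed. The difference between the lists could not be tested with 1 library per stage.

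**Figure D5:**
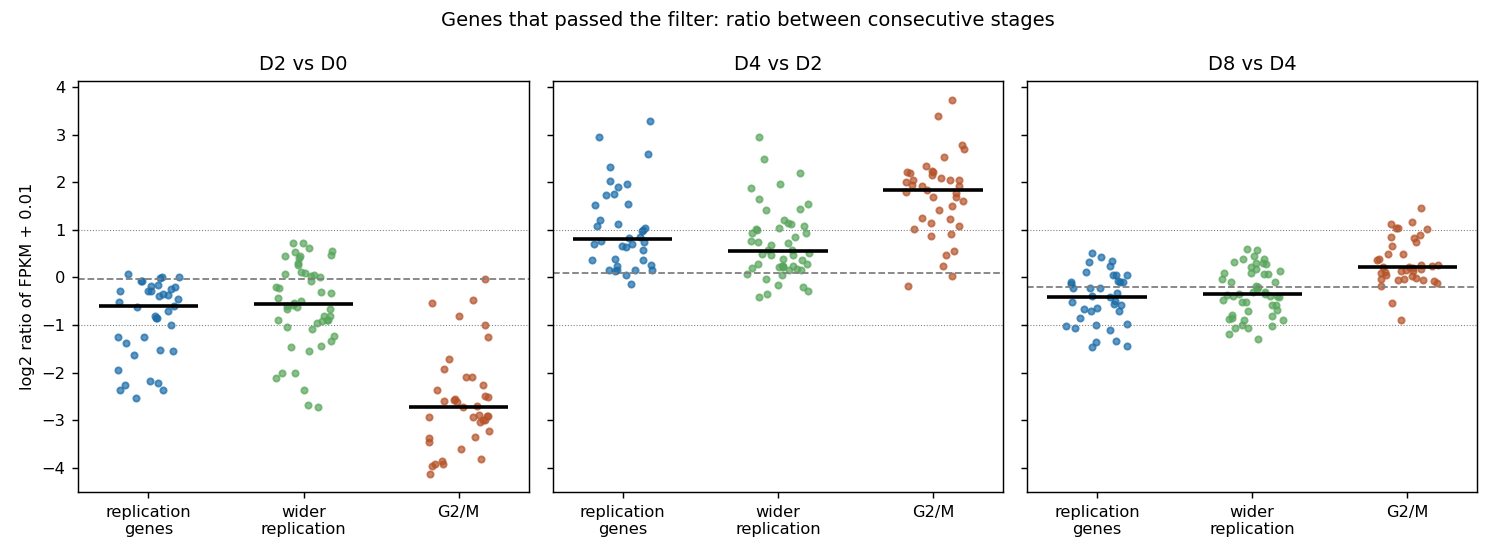
Log2 ratio of FPKM (+ 0.01) between consecutive stages (1 pooled library each) for the 38 replication genes, 50 genes of the wider replication list and 39 G2/M genes that passed the filter, each point 1 gene, with thick bars at the list medians, a dashed line at the median of all 9191 protein-coding genes and dotted lines at 2-fold. Medians at D2 against D0 were -0.60, -0.55 and -2.72, and at D8 against D4 -0.40, -0.34 and 0.21.

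Circular RNAs, made by back-splicing, gave a second readout of the same genes, in SRPBM, back-spliced reads scaled to the mapped reads of the library. Of 8623 circular RNAs, 28 came from 15 of the 44 genes, and 21 of the 28 (75.0%) were above 0 in 1 library only, as were 4852 of all 8623 (56.3%). The steps in the values correspond to 6.42, 7.27, 5.94 and 8.40 SRPBM for 1 junction read at D0, D2, D4 and D8. The most abundant, ssc_circ_0007423 of MCM6 (chromosome 15, 15928996 to 15941387), was 128 SRPBM at D0 (78.4 to 198), 203 at D2 (135 to 294), 142 at D4 (91.3 to 212) and 185 at D8 (116 to 280), from 20, 28, 24 and 22 reads. These intervals overlap, and a difference between stages was not detectable at this depth. RRM1 gave ssc_circ_0004783, with 25.7, 29.1, 65.3 and 42.0 SRPBM from 4, 4, 11 and 5 reads. MCM2 gave ssc_circ_0006631, with 77.0, 43.6, 29.7 and 0 at D0, D2, D4 and D8, where the limit that a count of 0 allows (3 reads) is 25.2. A further one of MCM6, ssc_circ_0007427, was 57.8, 0, 59.4 and 16.8, and ssc_circ_0003501 of CLSPN was 38.5, 36.3, 17.8 and 0, with limits of 21.8 for the 0 at D2 and 25.2 for that at D8. Intervals of the kind printed for ssc_circ_0007423 reach higher, to 26.8 for a 0 at D2 and 31.0 for a 0 at D8. The study kept circular RNAs with at least 2 junction reads, so a listed 0 may stand for 1 read. Over all 28, junction reads numbered 68, 62, 82 and 78 at D0, D2, D4 and D8, or 128, 141, 161 and 208 per 100000 junction reads of the library.

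Position and overlap were checked for all 44. They lie on 17 chromosomes of the Sus scrofa 11.1 assembly and, for MCM5, on an unplaced scaffold, and each position equals that of the RefSeq annotation. Transcript lengths recovered from the FPKM steps ranged from 888 bases for POLE2 to 10887 for POLA1. A gene on the opposite strand overlaps 13 of the 44, among them RFC5 (WSB2, 26.1 at D0 and 9.22 at D4) and TIPIN (DIS3L, 6.13 and 3.99). The library kit keeps strand, but whether counting used it is not given in the sources used here.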

How the data were processed

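Subcutaneous preadipocytes of 3 piglets were sampled at D0, D2, D4 and D8, with 1 pooled library per stage. Per the labels and the study's methods, ribosomal RNA was removed, directional libraries were made with a NEB kit and sequenced on an Illumina instrument. The submitters' processing notes name HISAT2 2.0.5 and BWA, and the reads were aligned to Sus scrofa 11.1. The deposited FPKM values per gene were made by the authors from fragments aligned to that genome, and the counting tool and its strand setting are not given in the sources used here. The deposited signal of circular RNAs is the authors' SRPBM, back-spliced reads scaled to mapped reads, from CIRI calls.

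FPKM was used on the scale of log2(FPKM + 0.01), and values of short RNA genes (tRNA and miRNA) gave the step of 1 fragment and so the library totals, with 343 of 367 to 372 of 392 such genes whole within 0.001. A length that gave whole reads in all libraries (within 0.02) was found for 22936 of 22944 genes. Recovered reads can be a whole fraction of the true number, as may be so for POLE2, whose recovered length of 888 bases is short for it, and intervals are then too wide. Intervals for a ratio between libraries are exact binomial ones, conditional on the sum of both read numbers and without pseudocount, those for circular RNAs are exact Poisson ones, and both cover counting error only. The limit for a count of 0 is 3 reads. The steps were tested on simulated data.

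The 44 genes and all lists were chosen by function with earlier results of these data known. Genes passed the filter at an FPKM of at least 1 in at least 3 libraries, after the study's own criterion. FPKM in all libraries is given for each of the 44 past 2-fold between consecutive stages and for the most abundant of each role, intervals for the 2 highest and 2 lowest ratios per consecutive comparison among genes that passed (those of other values and pairs were added after the values were seen), and for the other lists the 3 genes with the largest ratio at D2 against D0 and at D4 against D2. Circular RNAs above 0 in at least 3 libraries are named. Alternatives were pseudocounts of 0.1 and 1, no filter, FPKM of at least 1 in all 4 libraries, median-of-ratios scaling, scaling to an equal protein-coding sum, and a 1.5-fold threshold, and a filter on a mean FPKM of at least 0.25 was added after seeing the data. No test between stages was run, since each has 1 library, and the p-values of such a comparison would describe 2 libraries and not the stages. Promoter and protein sequences were not analysed here. Python 3.11.15, pandas 2.3.3, NumPy 2.4.6, SciPy 1.17.1 and Matplotlib 3.10.9 were used.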

Additional observations from a re-analysis of the deposited data

How the results depend on the processing

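No paired analysis was possible because each stage has 1 library. Over the 38 replication genes that passed the filter, the number past 2-fold (13, 16, 7, 5 and 1 in the 5 comparisons) changed as follows. At a 1.5-fold threshold it was 20 for D2 against D0, 25 for D4 against D2, 14 for D8 against D4, 14 for D4 against D0 and 5 for D8 against D0. With a pseudocount of 1 it was 9 for D2 against D0 and 11 for D4 against D2. It was then 1 for D8 against D4, 1 for D4 against D0 and 0 for D8 against D0. A pseudocount of 0.1 also gave 0 for D8 against D0. Requiring an FPKM of at least 1 in all 4 libraries, which left 32 genes, gave 9, 11, 3, 2 and 0 in the 5 comparisons. Median-of-ratios scaling gave 13 for D2 against D0, 14 for D4 against D2, 4 for D8 against D4 and 0 for D8 against D0. An equal protein-coding sum gave 13 for D2 against D0 and 14 for D4 against D2. The median log2 ratio for D2 against D0 was -0.45 with a pseudocount of 1 and, over all 44, -0.83 both with no filter and with a mean FPKM of at least 0.25 (added after seeing the data), and under median-of-ratios scaling it was -0.20 for D8 against D4 and -0.09 for D8 against D0.

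For the wider replication list, D2 against D0 gave 8 with a pseudocount of 1, 20 with no filter, 7 with an FPKM of at least 1 in all 4 libraries and 27 at 1.5-fold. D4 against D2 gave 8 with a pseudocount of 1 and 9 with the stricter filter, and D8 against D4 gave 0 and 2, 1 under median-of-ratios scaling and 15 at 1.5-fold. D4 against D0 gave 1 with a pseudocount of 1 and 13 at 1.5-fold, and D8 against D0 gave 6 at 1.5-fold. For the G2/M list, the stricter filter gave 20, 18, 9 and 0 for D2 against D0, D4 against D2, D4 against D0 and D8 against D0. D8 against D4 gave 3 with a pseudocount of 1, 3 with an equal protein-coding sum and 12 at 1.5-fold, D4 against D0 gave 29 at 1.5-fold, and D8 against D0 gave 0 with a pseudocount of 1, 0 under median-of-ratios scaling, 4 with no filter, 4 with a mean FPKM of at least 0.25 and 19 at 1.5-fold. The filter, fold and pseudocount settings change how many genes are counted by construction, and the cause of the differences under scaling was not tested.

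Of 560 values of single replication genes under other pseudocounts and scalings, 507 stayed on their side of 2-fold, 53 crossed it (35 of them with a pseudocount of 1) and 0 reversed past it. The 560 do not cover every gene in every comparison, so further crossings may not be counted. The promoter motif search planned was not run, as promoter sequences were not analysed here. With 1 pooled library per stage, spread between piglets or cultures was not measured. The median distance from a ratio to its counting bound was 0.10 to 0.14 on the log2 scale, and E2F8 at D2 rests on 4 reads.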
